A study of Mus musculus with 4 samples.

Results

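The genes described here encode the NADPH oxidases of epithelium, the dual oxidases Duox1 and Duox2 with their maturation factors Duoxa1 and Duoxa2 and the oxidase Nox1 with its organiser Noxo1, and the membrane-bound subunits of the phagocyte oxidase, Cyba and Cybb. They were taken from a list of 8 genes, and a gene was measured where the array annotation gave it a probe set of its own. That left 6 of the 8, among 22180 genes named in this way. Duoxa2 and Noxo1 share their probe sets with another gene in the annotation, so neither has a level of its own here. A probe set was to be chosen by its highest mean over the 4 arrays, but 0 of the 6 had more than 1. The list itself was selected on knowledge of earlier results of these data, so the members' counts and the contrast below are descriptions.

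The tissue was stomach of FVB mice aged 1 year, from 2 samples labelled Hdc+/+ and 2 labelled Hdc-/-, with 1 Affymetrix array for each. Histidine decarboxylase, which forms histamine from histidine, is the product of Hdc, and the labels do not describe the Hdc-/- allele further. No other allele, treatment or agent is named for either group. Samples of a genotype are titled as biological replicates, but no label ties them to separate animals, and the p-values below reflect only how far these samples spread, which may be technical.

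NADPH oxidases carry electrons from NADPH across a membrane to oxygen. Nox1 and Cybb make superoxide and need the partner protein encoded by Cyba, and in phagocytes Cybb is the core of the respiratory burst that kills microbes. Dual oxidases release hydrogen peroxide at the apical face of epithelia, and each needs its maturation factor to leave the endoplasmic reticulum. In the gut they are known for mucosal defence at the border with the microbiota, and in the thyroid for hormone synthesis.

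Each dual oxidase gene lies head to head with its maturation factor gene on mouse chromosome 2, which is why their start regions are shown. The transcription starts of Duox2 and Duoxa2 lie 673 bases apart on opposite strands, and those of Duox1 and Duoxa1 lie 1942 bases apart. The windows run from 250 bases before to 50 after the start, read 5′ to 3′ on the gene's strand, from RefSeq on GRCm38.p6, where all 8 genes had an entry. Capitals mark matches, on either strand, to any of 5 motifs that were searched. These were TTCNNNGAA (a STAT element), ATTTGCAT (the octamer), GGGCGG (the GC box), TGANTCA (an AP-1-like pattern) and TATAAA (the TATA box). TGANTCA takes any base at its centre and is looser than an AP-1 site. The pair around Duox2, the member that varied most, is Duox2 (chr2:122298178-122298477, minus strand) and Duoxa2 (chr2:122298650-122298949, plus strand).
Duox2: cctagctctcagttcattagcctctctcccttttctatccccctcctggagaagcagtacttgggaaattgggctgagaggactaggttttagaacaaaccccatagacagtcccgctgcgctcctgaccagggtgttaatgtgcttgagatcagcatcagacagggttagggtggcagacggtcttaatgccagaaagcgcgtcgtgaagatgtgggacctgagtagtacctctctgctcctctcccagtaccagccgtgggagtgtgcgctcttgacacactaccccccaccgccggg
Duoxa2: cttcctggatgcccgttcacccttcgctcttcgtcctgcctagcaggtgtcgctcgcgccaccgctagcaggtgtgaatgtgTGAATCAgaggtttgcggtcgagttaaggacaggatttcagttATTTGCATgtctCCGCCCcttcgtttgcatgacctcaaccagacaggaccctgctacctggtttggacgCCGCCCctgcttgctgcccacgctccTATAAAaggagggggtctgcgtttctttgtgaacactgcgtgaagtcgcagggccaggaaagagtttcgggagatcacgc

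The Duox2 window held 0 matches to the 5 motifs. The Duoxa2 window held TATAAA at bases 221 to 226, counted from 1 at the 5′ end, ATTTGCAT at bases 126 to 133, TGAATCA at bases 83 to 89 and a GC box, on the other strand, at bases 138 to 143 and at 195 to 200. Among all 32851 windows of 300 bases in the table, TATAAA was present in 13.6%, ATTTGCAT in 1.74%, TGANTCA in 7.81% and GGGCGG in 35.7%. Of the windows of the 8 genes, 0 held TTCNNNGAA, against 8.30% of all windows. These are letter matches in a fixed window and show neither binding nor its absence.

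The values are log2 probe set values. The arrays agreed in scale, with gene medians from 4.56 to 4.60, and each probe set has its own response, so levels are compared between arrays and not between genes. Glandular stomach markers were present on every array, the 10 genes of that list reading between 5.18 and 12.9. Their sums differed between arrays, as given below, and so did markers of adjoining organs. The 12 hepatocyte genes summed, on a linear scale, to 5173 and 15051 on Hdc+/+ arrays 1 and 2 and to 567 and 820 on Hdc-/- arrays 1 and 2, and intestinal and pancreatic lists were also highest on Hdc+/+ array 2.

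Duox2 was the member with the widest spread, and it read higher on both Hdc-/- arrays than on either Hdc+/+ array. It read 6.67 and 6.63 on Hdc+/+ arrays 1 and 2, against 9.47 on Hdc-/- array 1 and 7.65 on Hdc-/- array 2. The Hdc+/+ arrays lay 0.036 apart and the Hdc-/- arrays 1.82 apart, so the Hdc-/- samples differed far more from each other than the Hdc+/+ samples did, while the groups did not overlap. Hdc-/- exceeded Hdc+/+ by 1.91 as a log2 difference (SE 0.56, 95% interval 0.51 to 3.31, n = 2 per group), or 3.75-fold. It had an unadjusted p of 0.0164 by limma and did not pass after Benjamini-Hochberg adjustment over all genes (adjusted p = 0.464). Without Hdc-/- array 1 the difference was 1.00, and without Hdc-/- array 2 it was 2.82. A fit that keeps 1 Hdc-/- array holds no spread within that group, so only the difference is given.

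For its place among all genes, 187 of the 22180, or 0.843%, had a larger difference in absolute size than Duox2. A larger gap between the Hdc-/- arrays was seen in 0.325% of genes, and a larger gap between the Hdc+/+ arrays in 88.9%. Duox2 therefore combined near equal readings in the Hdc+/+ samples with one of the wider gaps in the Hdc-/- samples.

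Duox1, the paralogue of Duox2, varied less over the arrays. Its values were 3.78 and 3.55 on the Hdc+/+ arrays and 3.86 and 4.19 on the Hdc-/- arrays. The groups did not overlap, but the difference of 0.36 (SE 0.19, n = 2 per group, 95% interval -0.13 to 0.84, limma adjusted p = 0.665) did not pass. Hdc-/- array 2 was the highest for Duox1, where Duox2 was highest on Hdc-/- array 1. With every array left out in turn, the Duox1 difference ran from 0.20 to 0.52.

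Duoxa1, which brings Duox1 to the cell surface, read alike on all arrays. It gave 4.37 and 4.45 on the Hdc+/+ arrays and 4.37 and 4.45 on the Hdc-/- arrays. The difference was 0.0011 (SE 0.16, n = 2 per group, 95% interval -0.40 to 0.40, limma adjusted p = 0.999). Its range of 0.086 over the arrays was the narrowest of the 6 members.

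The partner of Duox2, Duoxa2, is listed in the annotation on 1 probe set together with Duoxa1, and the signal of that probe set cannot be assigned to either gene. It read 6.23 and 6.22 on the Hdc+/+ arrays, 9.50 on Hdc-/- array 1 and 6.43 on Hdc-/- array 2. The high value thus lay on the array where Duox2 was highest, 3.28 above the Hdc+/+ mean, while Hdc-/- array 2 lay 0.21 above it. With every probe set tested the difference was 1.75 (n = 2 per group, SE 0.98, adjusted p = 0.752 by limma). The probe set of Duoxa1 alone, described above, did not follow this pattern, with 4.37 on Hdc-/- array 1 and 4.45 on Hdc-/- array 2.

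Nox1, the superoxide-making oxidase best known from colonic epithelium, read 3.53 and 3.58 on the Hdc+/+ arrays and 3.49 and 3.99 on the Hdc-/- arrays. The groups overlapped, with Hdc-/- array 1 lowest and Hdc-/- array 2 highest. The difference was 0.18 (SE 0.22, n = 2 per group, 95% interval -0.36 to 0.72, limma adjusted p = 0.871). Its direction rested on Hdc-/- array 2, since the difference was -0.069 without that array and 0.43 without Hdc-/- array 1.

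Noxo1, the organiser that holds the Nox1 complex together, is listed with Tbl3 on 1 probe set and so has no level of its own. That shared probe set read between 4.47 and 4.59 on the 4 arrays, with a difference of 0.014 (n = 2 per group, SE 0.17, adjusted p = 0.996 by limma over all probe sets).

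**Figure D1:**
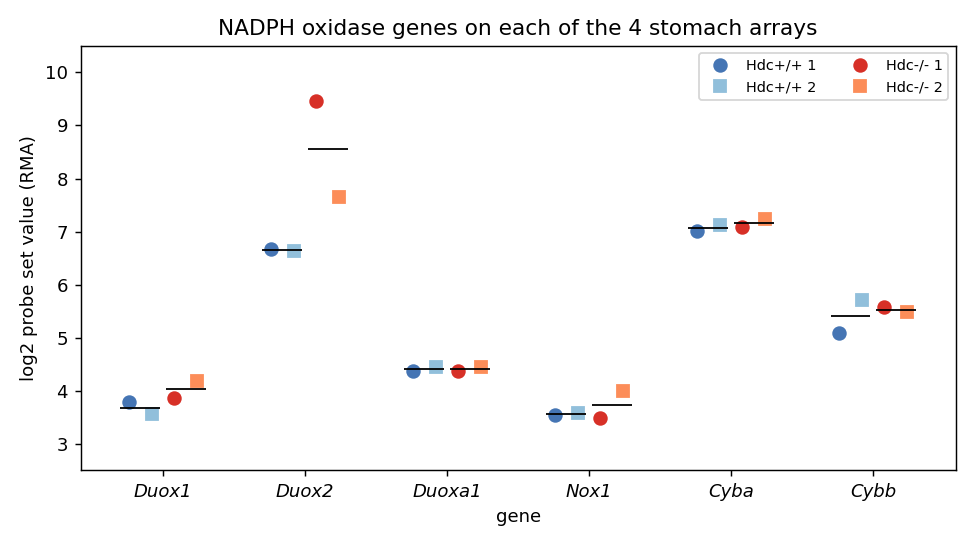
Log2 probe set value (vertical axis) of the 6 measured oxidase genes (horizontal axis) on each of the 4 arrays, coloured by sample, with short black lines at the group means. Duox2 stands at 9.47 and 7.65 on the Hdc-/- arrays against 6.67 and 6.63 on the Hdc+/+ arrays, and the other 5 genes span 0.63 or less over the arrays.

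Both phagocyte members differed less between the groups than between the Hdc+/+ arrays. Cyba, which encodes the p22phox subunit shared by the Nox1 and phagocyte complexes, read 7.01 and 7.13 on the Hdc+/+ arrays and 7.09 and 7.24 on the Hdc-/- arrays. The groups overlapped, and the difference was 0.096 (SE 0.17, n = 2 per group, 95% interval -0.32 to 0.51, limma adjusted p = 0.921). Cybb, the catalytic subunit gp91phox, read 5.10 and 5.72 on the Hdc+/+ arrays and 5.57 and 5.48 on the Hdc-/- arrays. Both Hdc-/- values fell between the Hdc+/+ values, and the difference was 0.12 (SE 0.24, n = 2 per group, 95% interval -0.48 to 0.73, limma adjusted p = 0.937). Hdc+/+ array 1 was the low one, and without it the Cybb difference turned to -0.19, against 0.43 without Hdc+/+ array 2.

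Of the 6 measured genes, 0 passed the test over all genes by limma, as against 0.00451% of all genes in the higher direction and 0% in the lower. With the unadjusted p taken at 0.05, Duox2 alone of the 6 counted as higher, that is 1 of 6 with 0 lower, where 3.68% of all genes were higher and 4.87% lower. The groups did not overlap for 2 of the 6, Duox1 and Duox2, both higher on the Hdc-/- arrays, and for 0 lower, where 21.5% of all genes were higher without overlap and 17.6% lower. The median difference of the 6 was 0.15, against 0.024 over all genes.

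**Figure D2:**
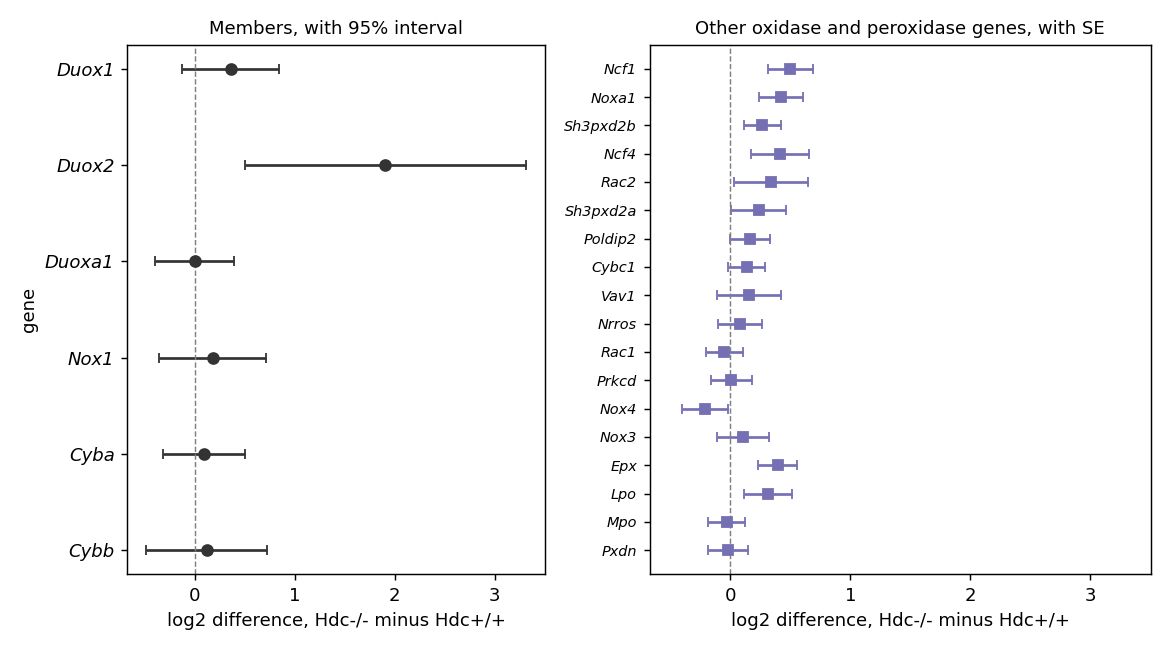
Log2 difference, Hdc-/- minus Hdc+/+ (horizontal axes), of the 6 measured members with 95% limma intervals (left) and of 18 other oxidase and peroxidase genes with 1 SE to each side (right). Duox2 at 1.91 lies apart from the other members, which run from 0.0011 to 0.36, and the genes on the right run from -0.21 to 0.50.

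The epithelial genes were set against the phagocyte genes array by array, each gene taken around its own mean over the 4 arrays. The 4 epithelial genes with a level averaged -0.29 and -0.32 on Hdc+/+ arrays 1 and 2, and 0.42 and 0.19 on Hdc-/- arrays 1 and 2. The phagocyte pair averaged -0.24 and 0.13 on the Hdc+/+ arrays and 0.039 and 0.070 on the Hdc-/- arrays. Epithelial minus phagocyte values were therefore -0.051 and -0.45 on the Hdc+/+ arrays and 0.38 and 0.12 on the Hdc-/- arrays, a shift of 0.50 between the group means.

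That shift rested on Duox2. The other epithelial genes in it, Duox1, Duoxa1 and Nox1, read below the gene median on every array, and no background values were used to tell a dim signal from none. With Duox2 left out, the epithelial minus phagocyte values were 0.16 and -0.24 on the Hdc+/+ arrays and -0.099 and 0.17 on the Hdc-/- arrays, so the groups overlapped and the shift was 0.071. With Duox1 and Duoxa1 left out and Duox2 and Nox1 kept, it was 0.93. These are descriptions with no test, because the members were chosen with earlier results of these data known.

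**Figure D3:**
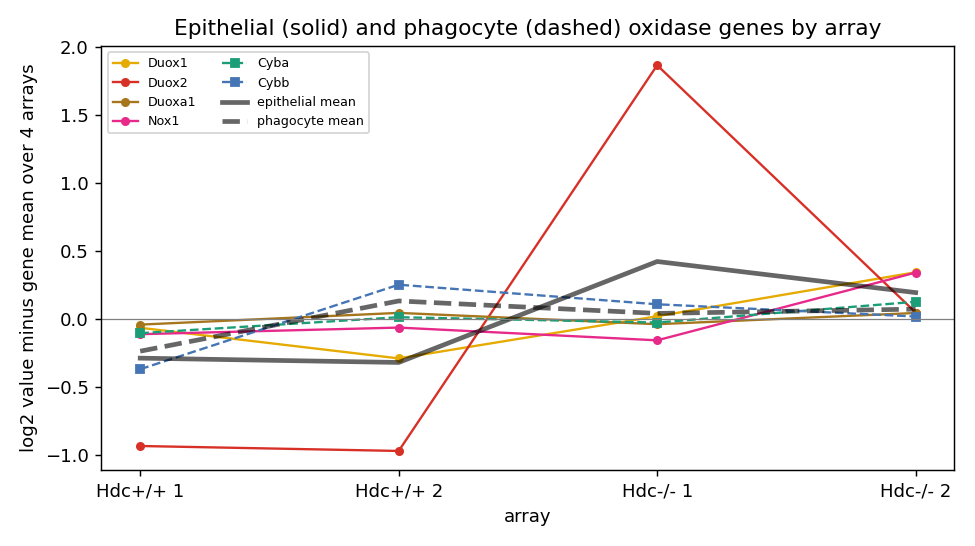
Log2 value minus the gene's mean over the 4 arrays (vertical axis) for each measured member on each array (horizontal axis), with epithelial genes solid, phagocyte genes dashed and thick lines for the means of each kind. Lines join the values of a gene and imply no order of the arrays, and Duox2, at 1.86 on Hdc-/- array 1 and -0.97 on Hdc+/+ array 2, departs from the rest.

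The genes whose pattern over the 4 arrays lay nearest to that of Duox2 were A4gnt, Tmem178, Pla2g4a, Pga5 and H60b, by Euclidean distance of the 4 centred log2 values. A4gnt, which encodes the enzyme that adds terminal N-acetylglucosamine to the mucin of gastric gland mucous cells, was the nearest at a distance of 0.22. It read 6.80 and 6.58 on the Hdc+/+ arrays, and 9.61 and 7.54 on the Hdc-/- arrays. Pla2g4a, the cytosolic phospholipase A2 gene, lay at 0.43, the pepsinogen gene Pga5 at 0.52, and H60b, a ligand gene for the lymphocyte receptor NKG2D, at 0.55. Tmem178 lay at 0.39. Differences between groups ran from 1.49 (Pla2g4a) to 1.89 (A4gnt). None of the 5 passed over all genes by limma, with adjusted p from 0.459 to 0.563 and unadjusted p from 0.0151 to 0.0409. The genes were picked for likeness to Duox2 on these same arrays, so their differences and p-values follow from that choice and test nothing further. With 4 arrays, a short distance is a description of these samples.

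**Figure D4:**
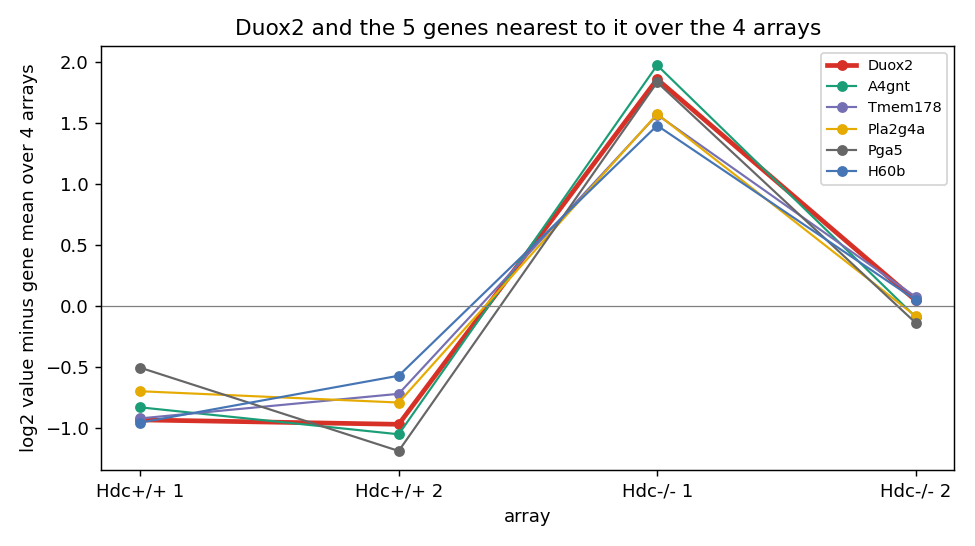
Log2 value minus the gene's mean over the 4 arrays (vertical axis) on each array (horizontal axis) for Duox2 and the 5 genes nearest to it. Each gene is highest on Hdc-/- array 1 and lies below its mean on both Hdc+/+ arrays, Duox2 at -0.94 and -0.97 there, and lines imply no order of the arrays.

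By the same distance no other measured member was near Duox2. The distance depends on the size of a change as well as its pattern, so a gene nearly flat over the arrays could not lie near. The probe set shared by Duoxa2 and Duoxa1 was not given a distance. The nearest was Duox1 at 2.17, and 27.3% of all genes lay nearer to Duox2 than Duox1 did. Nox1 lay at 2.38, with 62.5% of genes nearer.

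A further list held cytosolic subunits and accessory genes of the oxidases, and 12 of its 13 genes were measured. Over all genes 0 passed by limma. Unadjusted, 1 was higher at p under 0.05 and 0 were lower, where 3.68% of all genes were higher and 4.87% lower. The list's median difference was 0.20. Ncf1, which encodes the phagocyte organiser p47phox, read 4.66 and 4.46 on the Hdc+/+ arrays and 5.20 and 4.92 on the Hdc-/- arrays (difference 0.50, SE 0.19, adjusted p = 0.557). Noxa1, the activator of Nox1, differed by 0.42 (SE 0.19) and read highest on Hdc-/- array 2, the array on which Nox1 was also highest. Sh3pxd2b, an organiser-like scaffold gene, differed by 0.27 (SE 0.16). Of the 12, 6 were higher and 1 lower without overlap of the groups, where 21.5% of all genes were higher and 17.6% lower. Of the other catalytic subunits, Nox3 and Nox4 differed by 0.11 (SE 0.22) and -0.21 (SE 0.19).

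Peroxidases use the hydrogen peroxide that dual oxidases make, and 4 of 5 listed were measured, with 0 at an unadjusted p under 0.05. Epx, the eosinophil peroxidase gene, differed by 0.39 (SE 0.16), the lactoperoxidase gene Lpo by 0.31 (SE 0.20) and the neutrophil peroxidase gene Mpo by -0.030 (SE 0.16). Among 11 measured of 14 genes that remove superoxide or peroxide, 0 passed over all genes by limma. Without overlap of the groups, 2 of the 11 were higher and 5 lower, where 21.5% of all genes were higher and 17.6% lower. Unadjusted, 1 was higher at p under 0.05 and 2 were lower, where 3.68% of all genes were higher and 4.87% lower. The lower pair were Cat, the catalase gene (-0.90, SE 0.28, adjusted p = 0.489), and Sod1, the cytosolic superoxide dismutase gene (-0.63, SE 0.20, adjusted p = 0.487). Cat is abundant in liver, and it was highest on Hdc+/+ array 2 at 10.7, as was the hepatocyte list, whose part in the Cat value was not tested. Prdx4, a peroxiredoxin of the endoplasmic reticulum, read higher (0.79, SE 0.27).

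Cytokines known to raise Duox2 in epithelium, with genes of epithelial defence, formed a list of 23, of which 22 were measured. By limma 0 passed, also at an unadjusted p under 0.05, and the median difference was 0.057. The smallest p belonged to the chemokine gene Ccl20 (-0.44, SE 0.18), followed by Il1b, the interleukin 1 beta gene (0.38, SE 0.16), and Nos2, the inducible nitric oxide synthase gene (0.34, SE 0.16). Of the 22, 6 were higher and 1 lower without overlap of the groups, where 21.5% of all genes were higher and 17.6% lower. Outside the rule for naming genes, T cell cytokine genes of the list were chosen after their values were seen. Ifng, Il17a and Il22 differed by 0.17 (SE 0.17), -0.034 (SE 0.17) and 0.13 (SE 0.19). Il4 and Il13 differed by 0.39 (SE 0.26) and 0.22 (SE 0.17). Il4 read 3.85 on Hdc-/- array 1, where Duox2 was highest, and between 3.03 and 3.20 on the other arrays. Pigr, the receptor that carries IgA across epithelium, was singled out after its values were seen. It read 11.2 on Hdc-/- array 1 and 6.73 on Hdc-/- array 2, with 7.15 and 9.90 on the Hdc+/+ arrays, so it shared the high array with Duox2 but its groups overlapped.

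Other genes that set Hdc-/- array 1 apart stand beside the Duox2 result and were also singled out after their values were seen. Muc6, the mucin of gland mucous cells, read 8.40 and 9.30 on the Hdc+/+ arrays, 11.9 on Hdc-/- array 1 and 8.90 on Hdc-/- array 2. Slc5a5, the sodium iodide symporter gene of thyroid and stomach, went the other way, at 9.68 and 9.46 on the Hdc+/+ arrays, 7.31 on Hdc-/- array 1 and 9.44 on Hdc-/- array 2. The thyroid genes Tg, Nkx2-1 and Pax8 read between 3.23 and 4.11 on all arrays, and Foxe1, also of that list, between 4.93 and 5.25. Whether the share of gland mucous cells moved Duox2 was not tested, and in whole tissue fewer cells of a type and less RNA per cell cannot be told apart.

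Intestine also makes Duox2, and its markers are set beside it here, their part in the Duox2 values being not tested. The 14 intestinal genes summed on a linear scale to 697 and 658 on the Hdc-/- arrays and to 1484 and 8374 on the Hdc+/+ arrays. The 7 measured of 8 colonic genes summed to 468 and 218 on the Hdc-/- arrays and to 375 and 1576 on the Hdc+/+ arrays. The 11 measured of 12 squamous genes of forestomach epithelium summed to 1220 and 1384 on the Hdc-/- arrays and to 2658 and 2378 on the Hdc+/+ arrays. Surface pit cell genes, 10 in number, had a median difference of -0.23. The 10 glandular stomach genes went the other way, with a median difference of 0.65. Their linear sums were 16475 and 12810 on the Hdc+/+ arrays and 22271 and 19467 on the Hdc-/- arrays, and their part in the Duox2 values was not tested.

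Markers of phagocytes were set beside Cyba and Cybb. The macrophage list of 16 genes had a median difference of 0.42, with 0 of 16 passing over all genes by limma. Unadjusted, 7 were higher at p under 0.05 and 0 were lower, where 3.68% of all genes were higher and 4.87% lower. Its linear sum was 855 and 1189 on the Hdc+/+ arrays and 1396 and 1378 on the Hdc-/- arrays. Hdc+/+ array 1 was thus lowest for these markers, as it was for Cybb, and the part of macrophage content in the Cybb values was not tested. Tyrobp (0.85, SE 0.16), Adgre1 (0.66, SE 0.16) and Lyz2 (0.86, SE 0.25) had the smallest p in the list. Each of them read higher on both Hdc-/- arrays, which Cybb did not. Without overlap of the groups, 9 of the 16 were higher and 1 lower, where 21.5% of all genes were higher and 17.6% lower. The rest of the list overlapped between the groups, as Cybb did.

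The neutrophil list of 12 genes summed to 187 and 182 on the Hdc+/+ arrays and to 218 and 221 on the Hdc-/- arrays. Its median difference was -0.084, and 3 of the 12 differences were above 0. Without overlap of the groups 2 were higher, Ltf (1.15, SE 0.25) and Retnlg (1.58, SE 0.38), and 3 lower. Over all genes 21.5% were higher and 17.6% lower without overlap. The 6 measured of 8 eosinophil genes differed by a median of 0.39, with sums of 71.8 and 64.8 against 103 and 81.7. The 6 measured of 7 B cell genes, a further cell type that expresses Cybb, differed by a median of -0.18. Their sums were 96.6 and 124 on the Hdc+/+ arrays and 89.1 and 95.7 on the Hdc-/- arrays. Hdc+/+ array 2 was highest for both these sums and Cybb, but the lowest was Hdc-/- array 1 for the sums and Hdc+/+ array 1 for Cybb. The part of B cells in the Cybb values was not tested. In these 3 lists 0 members passed over all genes by limma. At an unadjusted p under 0.05 there were 2 higher in the neutrophil list and 0 others in either direction. Over all genes 3.68% were higher and 4.87% lower at that p.

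**Figure D5:**
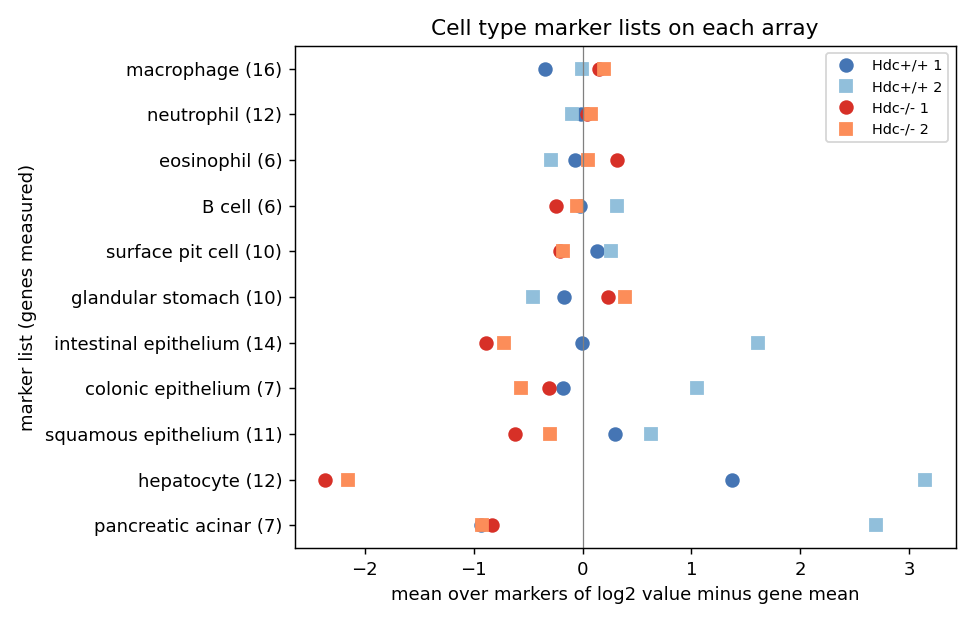
Mean over each marker list of the log2 value minus the gene's mean over the 4 arrays (horizontal axis), by list with the number of genes measured (vertical axis), for each array. The macrophage markers lie at -0.34 on Hdc+/+ array 1 and at 0.15 and 0.20 on the Hdc-/- arrays, and the hepatocyte markers at 3.15 on Hdc+/+ array 2.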

How the data were processed

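Stomach RNA from 4 samples was measured on Affymetrix arrays. The authors deposited 1 log2 value for each probe set and array. RMA, oligo and Affymetrix Power Tools are named per the submitters' processing notes, while summary level, filters and genome build were not given in the sources used here. Trizol was used for extraction, per the labels' protocols.

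Of 41345 probe sets, 23521 had 1 gene symbol in the platform annotation, 1814 several and 16010 none. Where a gene had several probe sets, the one with the highest mean over the 4 arrays was kept, giving 22180 genes. No dim gene was left out. Groups were compared with limma 3.58.1 in R 4.3.3 (lmFit, eBayes, no covariate), with Benjamini-Hochberg adjustment over all genes at 0.05, and every p in the text is from limma. Residual degrees of freedom were 2 and prior ones 3.62. An exact permutation test of 1 gene here cannot give a p below 0.333. Precision is limited by the number of arrays.

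The members and gene lists were chosen with earlier results of these data known. The naming rule took all members, up to 3 genes of smallest p per list, and the 5 genes nearest in pattern to the member of widest range. Simulated data had 22180 genes, each drawn independently with the same spread in both groups. There limma called 0 of 50 genes changed by 1 on the log2 scale and 37 of 50 changed by 2. It called 50 of 50 changed by 4, and 6 unchanged genes. Duox2 had a far wider gap between its Hdc-/- arrays (1.82) than between its Hdc+/+ arrays, so these rates do not carry over to it. In the real data Alb, at -7.02, did not pass (limma adjusted p = 0.0611). Alternatives changed the filter, probe set rule, normalization, prior, pairing and arrays.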

Additional observations from a re-analysis of the deposited data

How the results depend on the processing

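Over all genes limma called 1 higher and 0 lower. It called 0 higher with every probe set tested, 2 higher and 3 lower after quantile normalization and 3 higher and 2 lower with a trended and robust prior. With unadjusted p under 0.05 the counts were 816 higher and 1081 lower. Leaving out 1 array gave 0 to 3 higher and 0 to 158 lower, the 158 without Hdc+/+ array 1. The replicate block gave 1 higher and 6 lower. Deviations from the group means correlated at -0.12 between arrays of the same number over genes, so a crossed replicate block was added after seeing the data, and it gave 0 higher and 0 lower. The numbers are not known to pair the samples, and neither block brought a member past the threshold.

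No member passed under any of these settings after adjustment. The Duox2 difference stayed between 1.00 and 2.82 (adjusted p from 0.294 to 0.997), and at an unadjusted p under 0.05 Duox2 counted as called (1.91). The Duox1 and Cyba differences kept their direction in every alternative run. The Duoxa1 difference turned to -0.035 with cyclic loess and ran from -0.042 to 0.044 with 1 array left out. That of Cybb ran from -0.19 to 0.43 and that of Nox1 from -0.069 to 0.43 with 1 array left out, and the cause was not tested. The epithelial minus phagocyte shift was 0.93 without Duox1 and Duoxa1 and 0.071 without Duox2, an alternative added after seeing the data, and ran from 0.30 to 0.70 with 1 array left out. Without the dimmest 50% of genes Duox1, Duoxa1 and Nox1 were not tested. No background values were used, so dim signals have no lower limit here.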
